A study of Mus musculus with 2 samples.

Results

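Type 1 conventional dendritic cells (cDC1), the dendritic cells specialised in showing antigen to CD8 T cells, were picked out of a single-cell RNA-seq data set of immune cells from mouse liver tumours. The cells were chosen by their measured UMIs of Xcr1, Clec9a, H2-Ab1 and genes of other cell types. A barcode was taken as cDC1 when it held at least 200 genes, at most 10% mitochondrial unique molecular identifiers (UMIs, each standing for 1 captured RNA molecule), at least 2 UMIs of Xcr1 and Clec9a together, at least 5 UMIs of the MHC class II gene H2-Ab1, at most 1 UMI of Fscn1, under 15 UMIs of the complement genes C1qa, C1qb and C1qc together, and none of Cd3d, Cd3e and Cd3g. This rule found 277 of 19580 filtered barcodes, 158 of them after anti-PD-1 and 119 after the isotype control. The tumours were orthotopic Hepa1-6 tumours, grown in the liver from a mouse hepatoma cell line, in WT C57/BL6 mice. The mice received anti-PD-1, an antibody against the inhibitory receptor PD-1, or an isotype control (IgG), while their age and the doses and times of treatment are not stated in the labels. Live CD45+ cells were enriched and sorted from the digested tumours, and each treatment was sequenced as 1 droplet library. The labels do not state the number of mice behind a library, so the differences below have no replicate check, no test between the antibodies could be made, and every interval covers counting error only.

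cDC1 form under the control of the transcription factors Irf8, Batf3 and Id2 and the growth factor receptor Flt3. They take up material from dying cells through receptors such as Clec9a, move it into the MHC class I pathway with the help of Wdfy4 and other factors, and present its peptides to CD8 T cells, which is called cross-presentation. Their receptor Xcr1 binds Xcl1, a chemokine from T and NK cells, and in tumours they are known as a source of Cxcl9 and interleukin 12 and as cells that respond to interferon-gamma.

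The libraries held 72148493 UMIs in the anti-PD-1 sample and 67520433 in the isotype sample. The median filtered barcode had 6396.5 and 6271 UMIs. cDC1 were far deeper, with medians of 17636 UMIs (range 1807 to 39377) after anti-PD-1 and 17062 (2189 to 45032) after isotype, and 3575 and 3483 genes. Summed over cDC1 this gave 2949092 and 2066746 UMIs. The libraries shared 140 barcode sequences, of which 3 were cDC1 after anti-PD-1 and 1 after isotype. A doublet score above 0.25 was seen in 4 of 158 and 6 of 119 cDC1, and they were kept.

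Among the genes the rule did not use, the cDC1 markers Irf8 and Naaa were present in most of the cells. Irf8, the factor that sets the lineage, had a UMI in 145 of 158 cells after anti-PD-1 and in 113 of 119 after isotype. Naaa, a lysosomal enzyme, had one in 141 and 99 cells. Only 4 and 3 cells had neither. At the edge of the rule, 48 and 26 cells sat at exactly 2 UMIs of Xcr1 and Clec9a, with medians of 6 and 9.5 Irf8 UMIs and 4.5 and 3.5 Naaa UMIs. Just outside it, 102 and 79 cells met every other condition with 1 UMI, and their medians were 3 and 2 for Irf8 and 2 and 2 for Naaa. The upper limit on complement genes turned away 45 and 12 cells that had passed the limit on Xcr1 and Clec9a.

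The 277 cells were not uniform. Xcr1 and Clec9a were both found in 72 and 59 cells, Clec9a alone in 81 and 60, and Xcr1 alone in 5 and 0. Split after the data were seen, into cells with an Xcr1 UMI, cells with Clec9a alone, and cells with at least 3 UMIs of Siglech, a surface lectin of plasmacytoid dendritic cells, the groups differed in which markers they carried. The Xcr1-positive group, 77 cells after anti-PD-1 and 59 after isotype, carried the full set. It had 191 and 185 CPM (UMIs of a gene per 1e6 UMIs summed over the cells of the group) of Batf3, 509 and 467 CPM of Wdfy4, 422 and 402 CPM of Itgae, the integrin CD103, and 61.6 and 44.9 CPM of Tlr3, the sensor of double-stranded RNA. The Clec9a-only group of 72 and 43 cells had less of each. Its Batf3 was at 102 and 112 CPM, Wdfy4 at 258 and 318, Itgae at 201 and 166, and Tlr3 at 15.6 and 12.1. It also had more RNA of the inflammatory cytokine Il1b (2859 and 1931 CPM, against 876 and 935 in Xcr1-positive cells) and of the cDC2 marker Mgl2 (187 and 298 against 28.2 and 17.6 CPM). Its median depth was lower, at 15149 and 15231 UMIs against 21301 and 20910, and the part of depth in finding no Xcr1 UMI was not tested.

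The Siglech-high group went against the label. It held 9 cells after anti-PD-1 (5.70% of the cDC1) and 17 after isotype (14.3%). These cells had 0 UMIs of Xcr1, Batf3, Itgae and Tlr3, and Naaa stood at only 43.6 and 6.34 CPM. Their Irf8, a factor that plasmacytoid cells also use, was at 1963 and 1808 CPM. Beside it stood the plasmacytoid genes Siglech (1527 and 1668 CPM), Ly6d (1145 and 2163 CPM), Ccr9 (632 and 805 CPM) and Tcf4 (872 and 698 CPM). Clec9a, which let them pass the rule, was at 284 and 368 CPM. All 9 and 17 also met a plasmacytoid gate set by Siglech. Results that turn on these cells are given below with and without them.

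**Figure D1:**
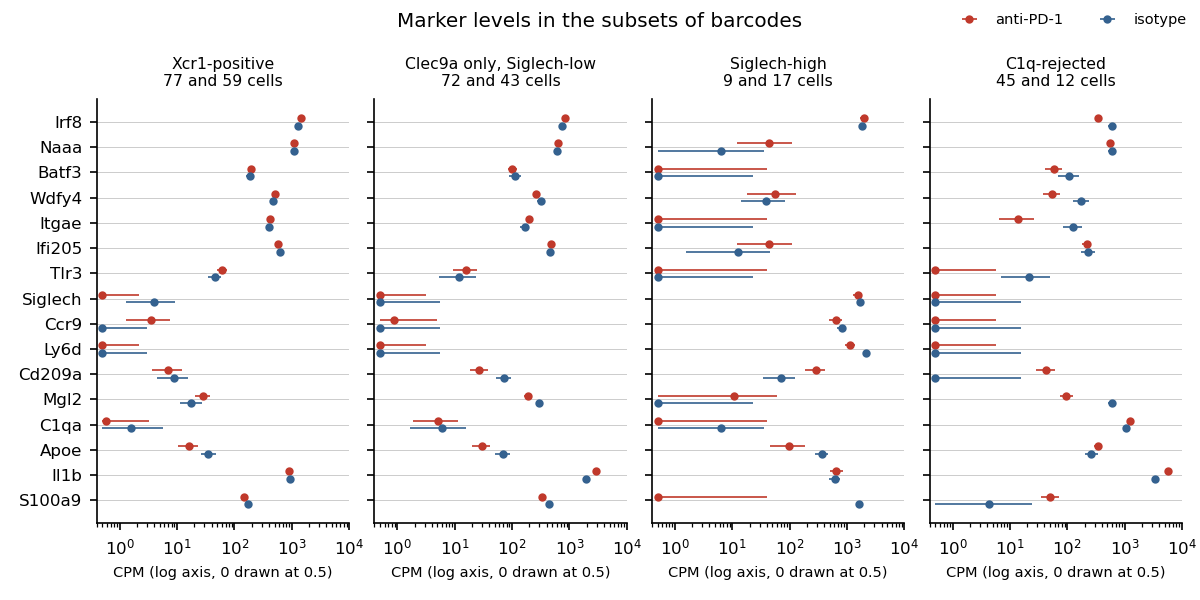
CPM of marker genes (log axis, with 0 drawn at 0.5, bars are exact Poisson 95% intervals) in the Xcr1-positive, Clec9a-only and Siglech-high cDC1 and in the cells turned away for complement genes, one point per library. Naaa runs from 1100 and 1077 CPM in Xcr1-positive cells to 43.6 and 6.34 in the Siglech-high cells, where Siglech and Ly6d are high and Batf3 is at 0.

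Markers of other cells ranged from none to UMIs in nearly every cell. Of the 11 hepatocyte and tumour cell genes, 7 were at 0 UMIs in both libraries, Alb among them, and all 5 red cell genes were at 0. Of 15 T and NK cell genes 9 were at 0, among them Cd3d, Cd3e and Cd3g, which the rule itself held at 0. The 12 genes outside the rule summed to 51.9 and 46.5 CPM. The 9 macrophage genes outside the rule summed to 421.5 and 413.7 CPM, with UMIs in 152 of 158 and 111 of 119 cells. Monocyte genes summed to 1892 CPM after anti-PD-1 and 2299 after isotype, in 151 and 113 cells. The cDC2 markers summed to 384 and 492 CPM, in 105 and 83 cells, and 9 neutrophil genes to 452 and 717 CPM, where 1 cell in each library held 31.7% and 31.6% of those UMIs. Plasmacytoid genes summed to 445 and 965 CPM. Mast cell and basophil genes were found in 1 anti-PD-1 cell, which held all 195 of their UMIs.

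The share of cDC1 among filtered barcodes was 1.58% after anti-PD-1 (exact Clopper-Pearson 95% interval 1.34 to 1.84) and 1.24% after isotype (1.03 to 1.49). The difference was 0.334 percentage points (Newcombe interval 0.00221 to 0.666), so its lower bound lay close to 0. Without the Siglech-high cells the shares were 1.49% and 1.07%, a difference of 0.422 points (0.107 to 0.739). Most of that difference came from the Clec9a-only cells, at 0.719% and 0.450% (difference 0.269, 0.0552 to 0.488). Xcr1-positive cells made up 0.769% and 0.617%, and the interval of their difference, -0.0826 to 0.388 points, included 0. The cells turned away for complement genes, which carried Clec9a (186 and 160 CPM) and Naaa (551 and 600 CPM) beside C1qa (1217 and 1062 CPM), made up 0.449% and 0.125%.

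Within dendritic cells the balance differed too. Of all barcodes in any of 4 dendritic gates, 466 after anti-PD-1 and 478 after isotype, cDC1 made up 33.9% (29.6 to 38.4) and 24.9% (21.1 to 29.0), a difference of 9.01 points (3.20 to 14.7). The other gates lay the other way: 177 and 205 cells were gated on the cDC2 lectin Cd209a (1.77% and 2.14% of filtered barcodes), 100 and 113 were migratory dendritic cells, gated on Fscn1 and Ccr7 (0.999% and 1.18%), and 45 and 61 were plasmacytoid (0.449% and 0.638%). In each of these other gates the interval of the difference in share of filtered barcodes included 0. It ran from -0.768 to 0.0126 points for Cd209a-gated, -0.478 to 0.109 for migratory and -0.401 to 0.0185 for plasmacytoid cells. With 1 library per treatment the differences of all gates cannot be told apart from differences between the tumours or the sorts.

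**Figure D2:**
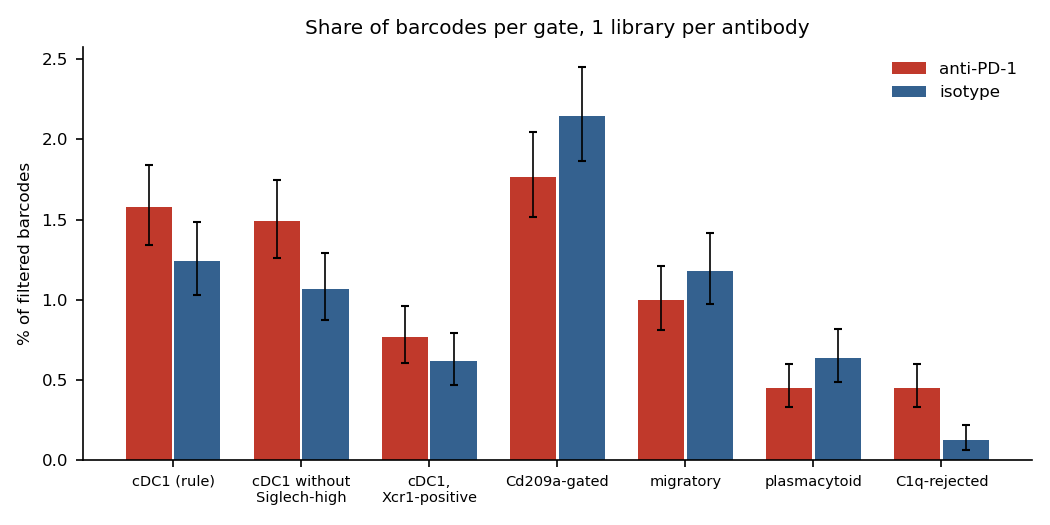
Share of filtered barcodes (percent, bars with exact 95% intervals) of cDC1, of cDC1 without the Siglech-high cells, of Xcr1-positive cDC1, of the other dendritic gates and of the cells turned away for complement genes, after anti-PD-1 and after isotype. cDC1 stand at 1.58% against 1.24%, while the Cd209a-gated, migratory and plasmacytoid cells stand lower after anti-PD-1 than after isotype.

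Set beside the other dendritic gates, cDC1 carried the genes of their identity and of cell division. Of 20 identity genes with at least 50 UMIs over both libraries, 14 were above all 3 other dendritic gates in both libraries, and so were 25 of 26 proliferation genes, against 16.2% of the 7068 genes measured at that depth. For the maturation genes of migratory cells the count was 0 of 15, for MHC class II 2 of 13, for the interferon-gamma response 3 of 29, and for cross-presentation and MHC class I 6 of 28. These are levels in gates that the rule itself set apart, and they are given as a description.

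The 10 genes outside the rule that stood out most in cDC1 were taken by the lower of the libraries' ratios to the next gate. Itgae had 322 and 296 CPM, 11.0 and 8.84 times the next highest dendritic gate. Ifi205, an interferon-inducible DNA-binding protein, had 518 and 524 CPM (8.86 and 12.8 times). Naaa had 887 and 847 CPM (6.96 and 6.54 times), and Ppt1, another lysosomal enzyme, 599 and 499 CPM (9.28 and 6.94 times). At lower levels stood Gpr141b (69.5 and 65.8 CPM), Gcsam (65.8 and 53.7), the scavenger receptor Cd36 (53.9 and 55.2) and the septin Sept3 (78.3 and 83.2). Rab32 (86.5 and 99.2 CPM) and Sdad1 (140 and 123 CPM) complete the set, at 4.15 and 4.56 and at 3.44 and 4.27 times the next gate. These ratios are to dendritic gates alone. In macrophage-gated cells Rab32 stood at 67.1 and 56.2 CPM, Naaa at 217 and 211 and Ifi205 at 111 and 69.9.

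Several lineage genes were shared with other dendritic cells. Irf8 stood at 1236 and 1136 CPM in cDC1, below the plasmacytoid gate (1691 and 1734) and above the migratory gate (906 and 758) and the Cd209a-gated cells (142 and 162). Batf3 was at 150 and 148 CPM, below the migratory gate at 216 and 178. Id2 followed the same order, at 557 and 453 CPM in cDC1 and 881 and 781 in migratory cells. Flt3 was at 136 and 136 CPM, below the plasmacytoid and migratory gates. Wdfy4, needed for cross-presentation, was at 396 and 387 CPM against 85.5 and 116 in Cd209a-gated cells, and Rab43, a vesicle protein of the same process, at 219 and 160 against 94.4 and 82.9 in the next gate. Ccr7, which guides dendritic cells to lymph nodes, was at 320 and 180 CPM against 8054 and 6658 in migratory cells.

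Between the antibodies, log2 ratios divide the CPM after anti-PD-1 by the CPM after isotype, over all cDC1 of a library, and carry exact conditional binomial 95% intervals. Of 7068 genes with at least 50 UMIs, 480 (6.79%) were at least 1.5-fold higher after anti-PD-1 and 175 (2.48%) at least 1.5-fold lower. By any amount 4486 (63.5%) were higher and 2582 (36.5%) lower, and the median ratio was 0.09. That lean moved with the scaling: of the genes past 1.5-fold, 73.3% were higher, against 58.0% with TMM scaling, which shifted all ratios by -0.078. It moved with the cells included too, at 84.0% without the Siglech-high cells.

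Interferon-gamma response genes stood apart from that background. Of 29 measured genes of a list of 34, 27 were higher after anti-PD-1, 19 of them by at least 1.5-fold and 0 lower by that much, and the median ratio was 0.84. Irf1, a transcription factor induced by interferon-gamma, was at 165 CPM after anti-PD-1 and 93.4 after isotype (0.82, 0.58 to 1.07), with UMIs in 111 of 158 and 60 of 119 cells. Genes of the receptor and its kinases lay on both sides of 0. Ifngr1 was at 240 and 270 CPM (-0.17, -0.33 to -0.01) and Jak2 at 216 and 219 (-0.02), while Ifngr2 was at 98.0 and 79.4 (0.30, 0.02 to 0.59) and Jak1 at 89.5 and 74.0 (0.27, -0.02 to 0.57).

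The guanylate-binding proteins, GTPases of cell-intrinsic defence, were among the genes with the widest gaps. Gbp2 had 1113 UMIs in 77 anti-PD-1 cells and 269 in 39 isotype cells, or 377 and 130 CPM (1.54, 1.34 to 1.73). Over single cells it ran from 0 through a median of 0 to 6697 CPM after anti-PD-1 and from 0 through 0 to 3373 after isotype, so the cells of the libraries overlapped. The 15 and 11 cells with most Gbp2 held 62.9% and 74.4% of its UMIs. Gbp3 was at 42.4 and 14.5 CPM (1.55, 0.96 to 2.17), Gbp4 at 42.4 and 10.2 (2.06, 1.39 to 2.80) and Gbp5 at 51.5 and 22.3 (1.21, 0.73 to 1.72). These genes are close paralogs, as are the interferon-induced GTPases Tgtp1 (1.06) and Tgtp2 (1.47), and counting can share reads between such copies. After thinning every cell to 2000 UMIs, a Gbp2 UMI was left in 30.6% of 157 anti-PD-1 cells and 13.4% of 119 isotype cells. In T cells, with median depths of 8579 and 6841.5 UMIs and thinned in the same way, it was 15.2% and 11.6%. Unthinned the shares in cDC1 were 48.7% and 32.8%.

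Other genes of the list pointed the same way. Calhm6, an interferon-induced membrane channel, had 108 UMIs in 34 cells after anti-PD-1 and 17 in 11 after isotype, or 36.6 and 8.23 CPM (2.15, 1.41 to 2.99). Serpina3g, a serine protease inhibitor, was at 175 and 63.9 CPM (1.46, 1.18 to 1.74). Il18bp, which binds and blocks interleukin 18, was at 20.01 and 4.35 CPM (2.20, 1.18 to 3.40), and the surface protein Ly6a at 511 and 285 (0.84, 0.70 to 0.98). Iigp1 was at 46.5 and 8.23 CPM, but 1 anti-PD-1 cell held 45 of its 137 UMIs. Cd274, the gene of PD-L1, a ligand of PD-1, was at 231 and 142 CPM (0.70, 0.50 to 0.90), with single cells from 0 through a median of 147 to 2169 CPM after anti-PD-1 and from 0 through 65.7 to 847 after isotype.

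The chemokines for T cells with the receptor Cxcr3 were less uniform. Cxcl10 was at 200 and 112 CPM (0.84, 0.62 to 1.06), in 43 and 16 cells. Cxcl9 was at 356 and 315 CPM, a ratio of only 0.17 (0.03 to 0.32), yet it was found in more cells: after thinning, 30.6% (23.5 to 38.4) of cDC1 after anti-PD-1 and 16.8% (10.6 to 24.8) after isotype, against 1.62% and 1.65% of T cells, and unthinned 45.6% and 31.1%. The 15 cells with most Cxcl9 held 54.7% of its UMIs after anti-PD-1, and the 11 such cells after isotype held 74.7%. Without the Siglech-high cells the Cxcl9 ratio was 0.10 with an interval (-0.04 to 0.25) that included 0, and in Clec9a-only cells it was -0.39. In Xcr1-positive cells it was 0.39 (0.21 to 0.57), at 414 and 315 CPM, while that of Cxcl10 was 0.12 (-0.20 to 0.44).

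The same list was also higher in other cells of the tumours. In macrophage-gated cells, which had at least 15 complement UMIs, 31 of 33 measured genes were higher (62.1% of all genes measured there), 23 of them by at least 1.5-fold (3.34% of all genes), and the median of 0.91 lay above that of cDC1. There Gbp2 differed by 0.95, Ly6a by 1.48, Calhm6 by 1.34 and Iigp1 by 2.15. The medians of the other dendritic gates were smaller. In Cd209a-gated cells 20 of 25 measured genes were higher (67.4% of all genes), 3 of them by at least 1.5-fold (6.46%), with a median of 0.34. In migratory cells 23 of 26 were higher (51.1% of all genes), 11 of them by at least 1.5-fold (4.8%), with a median of 0.45. In plasmacytoid cells 8 of 13 were higher (56.1% of all genes), with a median of 0.11, although Gbp2 differed there by 1.95 (1.12 to 2.86). Among all filtered barcodes that were not cDC1, Gbp2 differed by 1.01 (333 and 165 CPM), Calhm6 by 1.19 and Serpina3g by 0.63. In T cells 19 of 32 genes of the list were higher (62.3% of all genes), with a median of 0.08, and Gbp2 was at 0.65 and Calhm6 at -0.01. The difference between cDC1 and these cells was not tested. Within cDC1, 26 of 29 genes of the list were higher without the Siglech-high cells (median 0.79, beside 65.7% of all genes), 22 of 24 in Xcr1-positive cells (0.76, beside 62.5%) and 25 of 28 in Clec9a-only cells (0.89, beside 61.9%). Gbp2 stood at 180 and 46.5 CPM in Xcr1-positive cells and at 679 and 319 in Clec9a-only cells. Ifng itself had 0 UMIs in cDC1 of either library. In T cells it was at 357 CPM after anti-PD-1 and 446 after isotype.

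Promoter sequences of this list are shown because most of its genes lay on the same side of 0. RefSeq promoters of the build GRCm38.p6 matched 25 of the 34 genes by symbol, and the 250 bases upstream of the first listed start of each gene were searched on both strands. A motif of GAAA, any 2 bases and GAAA, a core of the ISRE element that interferon-regulated factors bind, was present in 13 of 25 (52%), against 3.04% of 27025 genes. The motif of TTC, any 3 bases and GAA, the GAS element of interferon-gamma-activated genes, was present in 10 of 25 (40%), against 7.18%. A window can hold both, and a match is a description of letters and not a site shown to be in use. Shown 5′ to 3′ on the strand of the gene, with the matched motif in capitals, are Gbp2 (chr3:142620413-142620662, plus strand, match starting 59 bases before the RefSeq start, on the opposite strand), Gbp3 (chr3:142559794-142560043, plus strand, 2 overlapping matches on the opposite strand), Calhm6 (chr10:34127973-34128222, minus strand, match starting 64 bases before that start) and Serpina3g (chr12:104235897-104236146, plus strand, where the capitals mark a GAS element starting 33 bases before it).
Gbp2: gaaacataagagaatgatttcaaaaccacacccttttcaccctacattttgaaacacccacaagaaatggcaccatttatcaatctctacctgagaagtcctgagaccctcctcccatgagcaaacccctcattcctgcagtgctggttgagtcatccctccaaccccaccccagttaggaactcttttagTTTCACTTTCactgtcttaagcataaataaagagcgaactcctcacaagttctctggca
Gbp3: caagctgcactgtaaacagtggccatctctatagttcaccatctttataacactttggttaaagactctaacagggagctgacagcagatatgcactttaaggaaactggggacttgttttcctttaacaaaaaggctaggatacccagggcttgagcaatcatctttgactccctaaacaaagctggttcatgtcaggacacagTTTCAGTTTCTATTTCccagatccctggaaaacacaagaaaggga
Calhm6: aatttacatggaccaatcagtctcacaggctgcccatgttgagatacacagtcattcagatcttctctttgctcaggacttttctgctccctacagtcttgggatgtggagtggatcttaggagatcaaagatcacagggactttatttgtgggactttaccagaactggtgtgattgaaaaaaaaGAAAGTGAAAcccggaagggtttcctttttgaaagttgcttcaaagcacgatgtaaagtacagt
Serpina3g: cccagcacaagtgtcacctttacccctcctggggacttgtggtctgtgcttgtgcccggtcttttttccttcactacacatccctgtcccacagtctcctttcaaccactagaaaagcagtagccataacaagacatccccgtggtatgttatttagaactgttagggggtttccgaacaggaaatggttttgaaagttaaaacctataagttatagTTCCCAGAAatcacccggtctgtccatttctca
In the first 3 windows the ISRE-like match lies within 64 bases of the RefSeq start, and Serpina3g holds the GAS letters in its place. Distances count from the RefSeq start, which differs from the GENCODE start given below for these genes: the windows of Gbp2, Gbp3 and Calhm6 reach past the GENCODE start, and that of Serpina3g ends before it. Neither motif was found in the windows of Cxcl9, Cd274 and Il18bp.

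**Figure D3:**
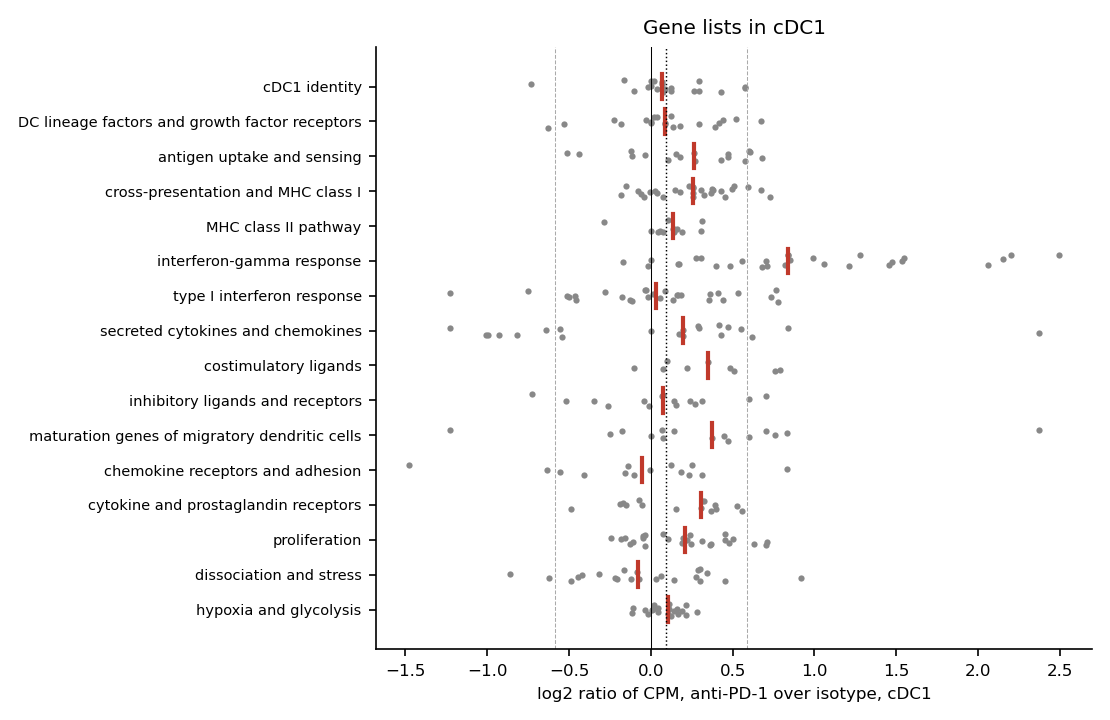
Log2 ratio of CPM (anti-PD-1 divided by isotype) in cDC1 for each measured gene of 16 lists (grey points) with the list's median (red mark). The dotted line is the median of all 7068 measured genes at 0.09 and the dashed lines mark 1.5-fold. The interferon-gamma response list has its median at 0.84, while the identity list lies at 0.07.

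By a rule on the interval bound nearest to 0, 10 genes higher and 10 lower after anti-PD-1 were singled out, and 6 of the higher ones were the interferon-gamma response genes Calhm6, Gbp4, Gbp2, Il18bp, Serpina3g and Gbp3. The other 4 were Serpinb9, Ptgs2, Foxk2 and Ramp3. All 20 are annotated as protein-coding genes in GENCODE on mm10. Among them Gbp3 (chr3:142560026-142573209) and Gbp2 (chr3:142620602-142638008) both lie on the plus strand, Calhm6 lies at chr10:34126067-34127984 on the minus strand, Serpina3g at chr12:104236245-104241939 on the plus strand, and Serpinb9 at chr13:33003250-33017957 on the plus strand. Serpinb9, the mouse inhibitor of granzyme B that shields cells from killer T cells, was at 84.1 and 28.1 CPM (1.58, 1.17 to 2.02), in 55 and 26 cells. Its level in migratory cells was far higher, at 664 and 578 CPM. Ramp3, a partner of calcitonin-type receptors, was at 49.2 and 16.9 CPM (1.54, 1.00 to 2.11), with 587 and 552 CPM in migratory cells.

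Ptgs2, the inducible enzyme of prostaglandin synthesis, was at 171 and 66.3 CPM (1.37, 1.09 to 1.65). Few cells carried it, with UMIs in 38 and 25 cells and 115 of 505 anti-PD-1 UMIs in 1 of them. Its ratio was 0.06 in cells with at least 4 UMIs of Xcr1 and Clec9a and 2.70 in Xcr1-positive cells. Foxk2, a forkhead factor, was low, at 23.1 and 6.29 CPM (1.87, 1.00 to 2.85), and it was also higher in Cd209a-gated cells (1.54), T cells (1.07) and all barcodes outside cDC1 (0.84).

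Of the 10 lower genes, 5 turned to the other side of 0 or were left with at most 1 UMI per library when the Siglech-high cells were taken out. Blnk, an adaptor of B cell receptor signalling that plasmacytoid cells also use, was at 11.9 and 35.3 CPM (-1.57), but without the Siglech-high cells 1 UMI was left in each library. Atp1b1 (-1.20) kept 1 UMI and 0. Cd7 (-1.52), Tsc22d1 (-1.06) and Pltp (-0.94) turned to 0.21, 0.97 and 1.02 without these cells. Slpi, a secreted protease inhibitor, was at 42.7 and 133 CPM (-1.64, -1.95 to -1.33), and at -1.18 (-1.57 to -0.80) without them. Ear2, a secreted ribonuclease, was low, at 5.43 and 20.3 CPM (-1.91), and at -1.97 without them. Clec4e, a receptor for mycobacterial and damage-derived lipids, was at 39.0 and 80.3 CPM (-1.04), and at -0.77 without them.

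The 2 chemokines in this set, which draw neutrophils and T cells or monocytes, remained lower without the Siglech-high cells. Ccl4 was at 750 and 1323 CPM (-0.82, -0.90 to -0.74), in 95 and 75 cells. Its ratio was -0.98 without the Siglech-high cells, -1.06 in Xcr1-positive cells and -1.01 in Clec9a-only cells. Cxcl2 was at 404 and 768 CPM (-0.93, -1.04 to -0.82), and 1 anti-PD-1 cell held 525 of its 1190 UMIs. Its ratio without the Siglech-high cells was -0.63.

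**Figure D4:**
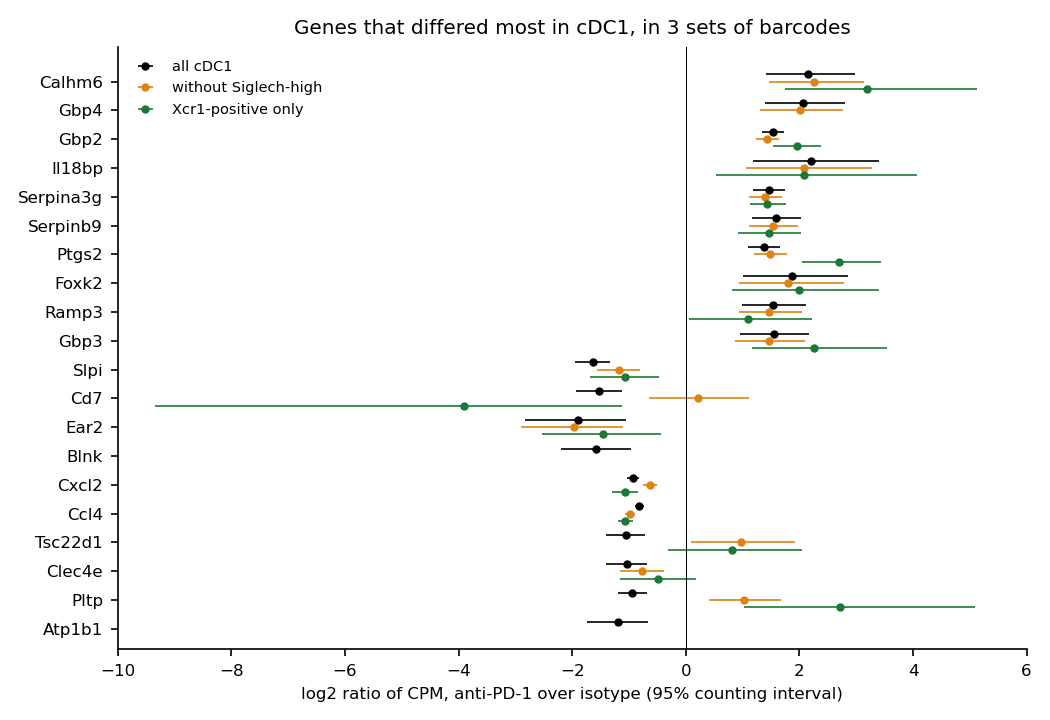
Log2 ratios of CPM (anti-PD-1 divided by isotype), with 95% counting intervals, of the 20 genes singled out, in all cDC1, without the Siglech-high cells and in Xcr1-positive cells. A point is left out where the set held under 10 UMIs or a library held 0. Gbp2 stands at 1.54 and 1.44 with and without the Siglech-high cells, while Cd7, Tsc22d1 and Pltp cross from below 0 to above it.

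In the MHC class I pathway, which cross-presentation feeds, differences were small and mostly in 1 direction. Of 28 measured genes 22 were higher after anti-PD-1, beside 63.5% of all genes. Of these 3 were higher by at least 1.5-fold, beside 6.79% of all genes, and 0 were lower by that much. The median was 0.26, beside 0.09 for all genes, and 17 intervals lay above 0 and 1 below. The class I heavy chain H2-K1 was at 1348 and 1076 CPM (0.32, 0.25 to 0.40). Single cells ran from 198 through a median of 1182 to 5043 CPM after anti-PD-1 and from 153 through 992 to 4637 after isotype, and so overlapped almost entirely. The peptide transporter Tap1 was at 435 and 335 CPM (0.38, 0.24 to 0.51), the immunoproteasome subunit Psmb8 at 1562 and 1304 (0.26, 0.19 to 0.33) and the proteasome activator Psme2 at 836 and 622 (0.43, 0.33 to 0.53). Tapbpl, a peptide editor, was at 65.8 and 39.7 CPM (0.73, 0.35 to 1.12). Of the genes more particular to cross-presentation, Rab43 was higher (0.45, 0.26 to 0.65), Wdfy4 was at 0.04 (-0.09 to 0.17), and Sec61b, a part of the channel of the endoplasmic reticulum, was lower (-0.18, -0.28 to -0.08).

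MHC class II genes differed by less. Of 13 measured outside the rule 12 were higher, beside 63.5% of all genes, 0 by 1.5-fold, with a median of 0.14. Without the Siglech-high cells 10 of 13 were higher, beside 65.7% of all genes. Their median was then 0.085, below 0.104 for all genes. H2-Aa was at 9864 and 8843 CPM (0.16, 0.13 to 0.18). Ciita, the factor that switches on class II genes, was at 116 and 93.9 CPM (0.31, 0.05 to 0.57). Without the Siglech-high cells these ratios were 0.11 (0.09 to 0.14) and 0.25 (-0.01 to 0.51). In Cd209a-gated cells 5 of 13 were higher, with a median of -0.07, beside 67.4% of all genes higher there. The protease Lgmn was the class II pathway gene that was lower in cDC1, at 82.1 and 100 CPM (-0.29). Among 17 genes of antigen uptake and sensing 12 were higher, beside 63.5% of all genes, 3 by at least 1.5-fold, with a median of 0.26. Fcgr1, an activating antibody receptor that interferon-gamma also induces, was at 34.9 and 21.8 CPM (0.68, 0.16 to 1.22). It stood at 78.1 and 36.3 CPM in Clec9a-only cells and at 5.87 and 12.8, on the other side, in Xcr1-positive cells, with 10 and 16 UMIs. Tlr3 was at 41.7 and 31.0 (0.43, -0.02 to 0.89).

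The identity genes themselves were close between the antibodies. Of 20 measured, 16 were higher, beside 63.5% of all genes, and 4 lower, with 0 higher and 1 lower by 1.5-fold. The median of 0.07 lay beside 0.09 for all genes. Irf8 differed by 0.12 (0.05 to 0.20), with single cells from 0 through a median of 1057 to 4370 CPM after anti-PD-1 and from 0 through 985 to 4407 after isotype. Batf3 differed by 0.02 (-0.19 to 0.24), Naaa by 0.07 (-0.02 to 0.15) and Id2 by 0.30 (0.18 to 0.41). The adhesion molecule Cadm1 was at 61.4 and 41.1 CPM (0.58, 0.20 to 0.97), and Sult1a1 at 24.8 and 41.1 (-0.73, -1.20 to -0.26). Among lineage factors and growth factor receptors, Spi1, the factor PU.1, was at 509 and 382 CPM (0.42, 0.29 to 0.54), Csf2rb at 354 and 270 (0.39, 0.24 to 0.54) and Kit at 81.0 and 56.6 (0.52, 0.19 to 0.85). Flt3 stood at 0.00, with an interval (-0.22 to 0.23) that included 0.

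Secreted factors were mixed. Of 21 measured, 13 were higher, beside 63.5% of all genes, and 8 lower, beside 36.5%. By at least 1.5-fold 3 were higher, beside 6.79% of all genes, and 6 lower, beside 2.48%. Intervals of 7 lay above 0 and of 8 below. Besides Ccl4 and Cxcl2, the chemokines Ccl3 (41.7 and 83.7 CPM, -1.01), Ccl17 (63.7 and 150 CPM, -1.23) and Ccl6 (308 and 453 CPM, -0.56) were lower after anti-PD-1. Ccl3 lay at -2.47 in Xcr1-positive cells and at -0.28 (-0.75 to 0.19) in Clec9a-only cells, and Ccl17 at -0.11 (-0.63 to 0.41) and -1.92 in the same groups. Il1b was at 1644 and 1229 CPM (0.42, 0.35 to 0.49), below the Cd209a-gated cells at 3996 and 3651. It was higher after anti-PD-1 in Clec9a-only cells, at 2859 and 1931 CPM. In Xcr1-positive cells it lay on the other side, at 876 and 935 CPM, with Poisson intervals that overlapped (832 to 921 and 882 to 991).

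Il12b, the shared chain of interleukins 12 and 23, was at 100 and 19.4 CPM in cDC1, which is 295 UMIs in 7 anti-PD-1 cells and 40 UMIs in 8 isotype cells. A single anti-PD-1 cell held 143 of them, so the ratio of 2.37 rests on few cells. Il12a, the partner chain of interleukin 12, had 11 and 12 UMIs, and Il10 had 0 in both.

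Costimulatory ligands, which T cells need beside antigen, were mostly higher, at 8 of 9 measured, beside 63.5% of all genes. Of these 2 were higher by at least 1.5-fold, beside 6.79% of all genes, and the median was 0.35. In Cd209a-gated cells 8 of 9 were higher too, beside 67.4% of all genes there, with a median of 0.30. Cd86 was at 162 and 114 CPM (0.51, 0.28 to 0.74). After thinning, 30.6% and 16.8% of cDC1 had a Cd86 UMI, against 3.69% and 5.33% of T cells, and unthinned the cDC1 shares were 84.2% and 69.7%. Cd40 was at 45.8 and 27.1 CPM (0.76, 0.30 to 1.23) and Tnfsf9, the 4-1BB ligand, at 54.3 and 31.5 (0.79, 0.36 to 1.23). Cd83 was close, at 885 and 840 CPM (0.08, -0.01 to 0.16). Cd70, Tnfsf18 and Slamf1 had 0 UMIs in cDC1.

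Of 15 inhibitory ligands and receptors 9 were higher, beside 63.5% of all genes, and 6 lower. Their median was 0.07, beside 0.09 for all genes. The second PD-1 ligand Pdcd1lg2 was at 59.3 and 39.2 CPM (0.60, 0.21 to 1.00), beside the higher Cd274. Havcr2, the receptor TIM-3, which cDC1 carry, was at 140 and 126 CPM (0.15, -0.07 to 0.38). Lgals9, a ligand of that receptor, was lower, at 58.3 and 83.7 CPM (-0.52, -0.83 to -0.21).

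Maturation genes, which migratory cells carry at high level, were higher for 12 of 15 measured, beside 63.5% of all genes. Of these 5 were higher by at least 1.5-fold, beside 6.79% of all genes, and 1 gene was lower by that much. The median was 0.38. Ccr7 was at 320 and 180 CPM (0.83, 0.66 to 1.01), in 49 and 32 cells, and Relb, an NF-kB factor of mature dendritic cells, at 61.4 and 37.7 (0.70, 0.31 to 1.10). In Cd209a-gated cells 4 of 13 maturation genes were higher, with a median of -0.24, again beside 67.4% of all genes. After thinning to 2000 UMIs the cDC1 median was -0.31. The rule itself allowed at most 1 UMI of Fscn1, a maturation gene, so strongly mature cells were kept out.

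Type I interferon response genes lay on both sides. Of 28 measured 15 were higher, beside 63.5% of all genes, and 13 lower, beside 36.5%. By at least 1.5-fold 3 were higher and 2 lower, beside 6.79% and 2.48% of all genes. The median was 0.03, beside 0.09 for all genes, and 6 intervals lay on each side of 0. Zbp1, a sensor of nucleic acids, was at 104 and 62.9 CPM (0.73, 0.43 to 1.04) and Oas1a at 29.8 and 17.4 (0.78, 0.20 to 1.38). Ifit1, an RNA-binding antiviral protein, was at 17.0 and 39.7 CPM (-1.23), in 10 and 8 cells, and Isg15 at 300 and 364 (-0.28, -0.42 to -0.14). The groups of cDC1 did not share these values. Isg15 was at 0.44 (0.16 to 0.72) in Xcr1-positive cells and at -0.81 (-0.98 to -0.64) in Clec9a-only cells. Of 17 genes of the list measured in Xcr1-positive cells 16 were higher, beside 62.5% of all genes there, with a median of 0.44. In Cd209a-gated cells 23 of 28 genes of the list were higher (67.4% of all genes), with a median of 0.36, and the difference from cDC1 was not tested.

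Stress genes, which digestion of tissue at 37 °C can induce, lay on both sides of 0. Of 22 measured 10 were higher after anti-PD-1, beside 63.5% of all genes, and 12 lower, with a median of -0.08. In Xcr1-positive cells 10 of 22 were higher (median -0.12, beside 62.5% of all genes there). In Clec9a-only cells 15 of 22 were higher (median 0.08, beside 61.9%). The immediate early gene Fos was at 688 and 364 CPM (0.92, 0.80 to 1.04), and the heat shock gene Hspa1b at 246 and 378 (-0.62, -0.77 to -0.47). In Xcr1-positive cells Hspa1b lay on the other side of 0, at 258 and 192 CPM (0.43, 0.20 to 0.66), against -1.11 in Clec9a-only cells. Of 20 genes of hypoxia and glycolysis 16 were higher, beside 63.5% of all genes, 0 by 1.5-fold. Their median was 0.11, beside 0.09 for all genes.

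Dividing cells were a visible fraction of cDC1. At least 5 UMIs over 12 cell cycle genes were found in 31 of 158 cells after anti-PD-1, or 19.6% (13.7 to 26.7), and in 18 of 119 after isotype, or 15.1% (9.22 to 22.8). The difference was 4.49 points, with an interval (-4.79 to 13.2) that included 0 and covers counting error only. The same cut gave 3.95% and 1.95% of Cd209a-gated cells, 0% and 2.65% of migratory cells, 3.64% and 3.58% of macrophage-gated cells, and 26.1% and 17.5% of T cells. Because cDC1 were deeper, the cut was repeated after thinning to 2000 UMIs: 6.37% and 4.20% of cDC1 passed it, against 0.565% and 0.976% of Cd209a-gated cells and 12.9% and 8.82% of T cells. With at least 1 UMI after thinning the cDC1 shares were 17.8% and 18.5%, a difference of -0.653 points (-10.1 to 8.33). This is a range of a score and not a cell type, and 9 and 6 cells lay within 2 UMIs of the cut. Mki67, carried by cells in cycle, was at 76.6 and 59.5 CPM in cDC1.

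Cycling and other cDC1 differed in what else they expressed. Cycling cells were higher in the identity genes Naaa (1119 against 801 CPM after anti-PD-1 and 1103 against 769 after isotype) and Batf3 (200 against 131 and 180 against 138), and in both libraries 10 of 20 identity genes were higher and 2 lower. Secreted factors were higher for 0 of 21 and lower for 18 of 21 in both libraries, with median log2 ratios of -1.09 and -1.58. Il1b was at 720 against 1988 CPM after anti-PD-1 and 666 against 1401 after isotype. Maturation genes were lower for 14 of 15, with Ccr7 at 52.5 against 420 CPM and 22.8 against 228. Interferon-gamma response genes were lower for 19 of 29 and higher for 1, and Gbp2 was at 228 against 433 CPM and 35.2 against 159. Over all 7054 genes compared, 2619 were higher and 2142 lower in both libraries. All Siglech-high cells fell among the cells that were not cycling, so the comparison was repeated without them. Naaa then stood at 1119 against 835 CPM after anti-PD-1 and 1103 against 854 after isotype, and Batf3 at 200 against 137 and 180 against 153, where the isotype ratio had an interval that included 0. Over all 6845 genes compared without them, 2657 were higher and 1930 lower in both libraries. Of 19 identity genes 8 were higher and 4 lower, a split close to that of all genes. Secreted factors were lower for 17 of 21, maturation genes for 13 of 14 and interferon-gamma response genes for 20 of 29. Other cells' markers were also lower in cycling cells, in both libraries, for 7 of 7 cDC2, 5 of 8 monocyte, 4 of 5 macrophage and 4 of 4 neutrophil genes, and their part in these differences was not tested. The split used 12 cell cycle genes, and the share of a cell's RNA they and their partners take bears on every other CPM, a part that was not tested.

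**Figure D5:**
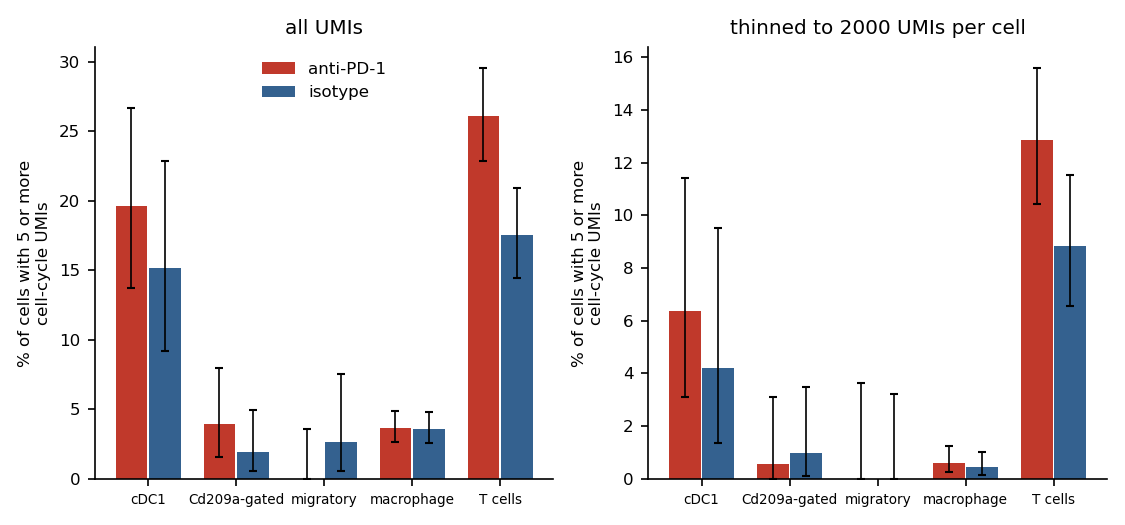
Share of cells with at least 5 UMIs over 12 cell cycle genes (percent, with exact 95% intervals), for cDC1 and the comparison gates in both libraries, unthinned and thinned to 2000 UMIs. cDC1 stand at 19.6% and 15.1% unthinned, above Cd209a-gated cells at 3.95% and 1.95% and beside T cells at 26.1% and 17.5%.

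The receptor and ligand that link cDC1 to T and NK cells lay in separate cells. cDC1 held 92.2% and 83.1% of all Xcr1 UMIs of the filtered libraries and 69.8% and 74.9% of all Clec9a UMIs, genes by which they were chosen. The Xcr1 ligand Xcl1 had 0 UMIs in cDC1 and stood in T cells at 348 CPM after anti-PD-1 and 614 after isotype. Flt3l, the growth factor of dendritic cells, had 46 and 21 UMIs in cDC1.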

How the data were processed

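The study sequenced CD45+ cells of anti-PD-1 and isotype treated mice as 1 library each, with the 3′ v2 droplet kit of 10x Genomics, per the labels. The authors deposited UMI counts per gene and barcode, not normalized. Cell Ranger appears as version 5.0.1 per the file headers and as version 2.1.1, with mm10, per the submitters' processing notes. The settings of cell calling were not stated. Dense tables of the same samples were not used here. Such 3′ counts do not scale with gene length, and free RNA can add UMIs to any barcode.

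Barcodes with at least 200 genes and at most 10% mitochondrial UMIs were kept. The rule for cDC1, the members and the gene lists were chosen with earlier results of these data known. Of the 27 gene lists, those of cell types absent from cDC1 are given as sums. UMIs were summed per gate and library, scaled to CPM, and compared as log2 ratios with exact conditional binomial 95% intervals for genes with at least 50 UMIs. Shares have exact Clopper-Pearson intervals and their differences Newcombe intervals. A count of 0 was set against a floor of 3 counts. No p-value was computed, since cells are not replicates. The comparison gates shared the filters and, except for T cells, the absence of Cd3 genes. Cd209a-gated cells had at least 2 Cd209a UMIs, none of Xcr1 and Clec9a, and the cDC1 limits on H2-Ab1, Fscn1 and complement genes. Migratory cells had at least 3 Fscn1 UMIs, at least 1 of Ccr7, and the cDC1 limits on H2-Ab1 and complement genes. Plasmacytoid cells had at least 3 Siglech UMIs and the cDC1 limit on complement genes. Macrophage-gated cells had at least 15 complement UMIs and none of Xcr1 and Clec9a, and T cells at least 3 UMIs of Cd3 genes.

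Named genes had at least 20 CPM in the higher library, UMIs in at least 10 of its cells and at most 25% of those UMIs in 1 cell. From 5043 such genes the 10 higher and 10 lower with the interval bound farthest from 0 were taken, leaving out ribosomal protein, mitochondrial, sex-linked and haemoglobin genes, receptor segments, unnamed genes, genes of the rule and markers of other cells. Members of the lists could be named too. For detection shares and the cycling score, cells were thinned to 2000 UMIs. Doublets were scored with scrublet (scanpy 1.11.5, expected rate 0.06). Its automatic threshold marked 1 barcode per library and so did not work, and none were removed. The split by Xcr1 and Siglech and the genes given as detection shares were chosen after the data were seen. Intervals were tested only on simulated Poisson counts, the counting error that they assume. That simulation held no spread between cells, so it does not cover genes whose UMIs sit in few cells. Python 3.11.15, numpy 2.4.6, scipy 1.17.1 and pandas 2.3.3 were used.

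Alternatives were other mitochondrial, marker, complement and UMI limits, removal of doublet scores above 0.25 or of cycling cells, per-cell means, thinning and TMM scaling.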

Additional observations from a re-analysis of the deposited data

Results flagged for a closer look

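For 8 genes besides Siglech, the gene that split the cells and which is left out here, the ratios of cDC1 and of Cd209a-gated cells lay on opposite sides of 0, each with a counting interval that did not include 0, also without the Siglech-high cells. They are those with ratios at least 1 log2 unit apart, a limit chosen after the data were seen, of 22 genes, Siglech included, that met the other conditions. Only members of the gene lists and the genes singled out above were screened. Genes outside these were not counted, so neither number is a count over all measured genes. The difference between the gates was not tested.

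The chemokine Ccl4 was at -0.82 in cDC1 and 0.55 in Cd209a-gated cells, and Ccl3 at -1.01 and 0.51. Ccr7, the receptor that guides dendritic cells to lymph nodes, was at 0.83 in cDC1 and -0.56 in Cd209a-gated cells, and the PD-1 ligand gene Pdcd1lg2 at 0.60 and -0.57. The antiviral gene Ifit2 was at -0.50 and 0.58, and at -0.12 in cDC1 without the top cell of each library. In Xcr1-positive cDC1 it lay on the other side, at 0.76 with an interval that did not include 0 and with UMIs in 6 cells of each library, while the ratios of the other 7 genes in those cells were on the same side as in all cDC1. Fn1, which encodes fibronectin, was at -0.67 and 0.59, the transferrin gene Trf at -0.83 and 0.52, and the arginase gene Arg1 at -0.73 and 0.34. Arg1 was found in 9 and 12 cDC1, and 1 anti-PD-1 cell held 139 of its 229 UMIs.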

How the results depend on the processing

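Across 41 results and 499 values under the alternatives, 458 stayed within the interval of the result or within 1.5 times the count. Another 35 moved beyond it, and 6, whose interval had not included 0, reversed. For a list median this interval was the median plus or minus the median half-width of its members' counting intervals. It describes the spread of single genes and is not an interval of the median itself. The interferon-gamma response list had its median between 0.61 and 1.01 over 13 alternatives. The difference in cDC1 share lay between 0.152 and 0.422 points over 7, and the difference in cycling share between 2.17 and 3.55 points over 4. The cut of at least 1 UMI after thinning was not among those 4, and it put the cycling difference on the other side of 0, at -0.653 points. Counts past 1.5-fold, 480 higher and 175 lower, moved with the genes measured: 112 and 83 after thinning to 2000 UMIs, 912 and 417 with at least 20 UMIs per gene, and 202 and 89 with at least 100. The lower count was 271 with means of per-cell CPM and 105 without the Siglech-high cells. Of 16 list medians 9 crossed 0 under at least 1 alternative, most within their interval, among them secreted factors (0.19, down to -0.12 after thinning), type I interferon (0.03, down to -0.20 after thinning), inhibitory genes (0.07, down to -0.044 with at least 4 UMIs of Xcr1 and Clec9a), proliferation (0.21, -0.086 without cycling cells) and identity (0.07, -0.0074 with TMM). Thinning also took the maturation median to -0.31 and reversed that of the cytokine and prostaglandin receptors to -0.027, with fewer genes measured. Without the Siglech-high cells Cd7 (0.21), Tsc22d1 (0.97) and Pltp (1.02) reversed, and in Xcr1-positive cells Tsc22d1 (0.81) and Pltp (2.72) did. The 2 settings on Siglech and Xcr1 were chosen after the data were seen. No paired analysis was possible because each treatment has 1 library. Differences between libraries cannot be told apart from those between treatments, and low genes with UMIs in few cells carry the widest intervals.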

Other observations

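Among monocyte and macrophage markers, Thbs1 and Apoe, picked after their values were seen, were found in a minority of cDC1 and were lower after anti-PD-1. Thbs1, which encodes the matrix protein thrombospondin 1, was at 72.2 and 297 CPM (log2 ratio -2.04, interval -2.27 to -1.81), with UMIs in 22 cells of each library. Apoe, a lipid carrier of macrophages, was at 23.7 and 71.1 CPM (-1.58, -2.02 to -1.16), in 22 and 23 cells, and 1 isotype cell held 41 of its 147 UMIs. Of 9 measured monocyte markers 7 were lower after anti-PD-1, beside 36.5% of all genes, with a median of -0.56. Without the Siglech-high cells 4 of 8 were higher, beside 65.7% of all genes, and 4 lower, with a median of -0.03. Ly6c2, a monocyte surface protein that plasmacytoid cells also carry, then moved from -0.55 to the other side of 0, at 104 and 36.7 CPM. Thbs1 and Apoe were at -2.11 and -1.14 without the Siglech-high cells. Of 5 measured macrophage markers 3 were higher, beside 63.5% of all genes, and 2 lower, with a median of 0.13. The part of monocyte RNA in these values was not tested.

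The receptors of cDC1 for cytokines and prostaglandins lay on both sides of 0. Il1r2, the decoy receptor for interleukin 1, was at 375 and 255 CPM (0.56, 0.41 to 0.71), and Ptger4, a receptor for prostaglandin E, at 57.3 and 80.3 CPM (-0.49, -0.80 to -0.17).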
